A study of Mus musculus with 12 samples.

Results

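Salt-inducible kinase 2 (Sik2), the other salt-inducible kinases, their CREB-regulated coactivators and the kinases upstream of or related to them were examined in mouse somatosensory cortex. The set held 10 of the 24452 gene symbols in the files, as 15 of 35840 RefSeq transcripts: Sik1, Sik2 and Sik3, Crtc1, Crtc2 and Crtc3, Creb1, Stk11, Prkaa1 and Prkaa2. Sik2 was chosen by its measured values, because it changed between these same groups, so its values are a description with no test. The other 9 were chosen for their known relation to Sik2. All 10 passed the filter on low counts, as did 14739 symbols in all.

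The samples were 12 RNA-Seq libraries of somatosensory cortex from male C57BL/6 pups on postnatal day 7. Wild-type (WT) and p53 KO pups, offspring of p53 heterozygotes, received 2 injections of saline or of ethanol and were examined 8 hours after the second, with 3 libraries in each of the 4 groups. The p53 KO line (Trp53tm1Tyj) lacks part of Trp53 in every cell from conception, so no cell type or age is singled out by the deletion. All pups, controls included, were injected. Some of the study's cortex samples were cut out by laser microdissection and the others by a hole punch, and which library came from which method is not given in the sources used here.

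SIK1, SIK2 and SIK3 belong to the AMPK-related kinases. The kinase LKB1, encoded by Stk11, activates them and the AMPK catalytic subunits (encoded by Prkaa1 and Prkaa2) by phosphorylating a threonine in the activation loop. An active SIK phosphorylates the CRTC coactivators, which are then held in the cytoplasm by 14-3-3 proteins. When cAMP or calcium signals inhibit the SIKs or activate calcineurin, the CRTCs enter the nucleus and bind the transcription factor CREB (Creb1) at cAMP response elements. In neurons this route is known for activity-dependent transcription. All of these steps act on proteins, whereas the values here are levels of mRNA.

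The activation loops are printed because they hold the threonine that LKB1 phosphorylates, and they show how the 3 SIK mRNAs differ from the AMPK mRNAs in base composition. The coding stretch from the aspartate of the DFG motif to the glutamate of the APE motif was 81 bases, or 27 codons, in each of the 5 kinases (GENCODE transcripts on mm10, coding strand, 5′ to 3′; capitals mark the codon of the threonine that LKB1 phosphorylates).
Sik1: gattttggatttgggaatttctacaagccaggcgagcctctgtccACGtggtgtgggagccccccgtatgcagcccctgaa
Sik2: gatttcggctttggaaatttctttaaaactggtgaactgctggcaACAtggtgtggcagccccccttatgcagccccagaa
Sik3: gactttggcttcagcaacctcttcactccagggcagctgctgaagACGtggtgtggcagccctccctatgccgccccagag
Prkaa1: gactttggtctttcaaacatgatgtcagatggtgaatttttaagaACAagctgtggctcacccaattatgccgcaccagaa
Prkaa2: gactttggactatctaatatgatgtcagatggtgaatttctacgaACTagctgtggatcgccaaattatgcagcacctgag
The threonine is residue 182 of the encoded SIK1, 175 of SIK2 and 221 of SIK3, and residue 183 and 172 of the proteins from the Prkaa1 and Prkaa2 transcripts used here. The Sik2 stretch lies in exons 4 and 5 of 16 (chr9:50917573-50935416, minus strand, intron included), and that of Sik3 in exons 4 and 5 of 25 (chr9:46155540-46177951, plus strand). Those of Sik1 (exons 5 and 6 of 14, chr17:31850986-31851235, minus strand), Prkaa1 (exons 4 and 5 of 9, chr15:5168706-5170002, plus strand) and Prkaa2 (exons 4 and 5 of 9, chr4:105049348-105051208, minus strand) also span an exon junction. Of the 27 residues, SIK2 shared 23 with SIK1, 21 with SIK3 and 17 with each AMPK subunit. The 2 AMPK subunits were identical over all 27 residues, yet their bases were identical at only 68 of 81 positions. The loop of Sik3 was 61.7% GC, that of Sik1 56.8% and that of Sik2 49.4%, against 42% in both Prkaa1 and Prkaa2.

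The whole transcripts differed in the same way. GC content was 52.6% in Sik2, 55% in Sik1 and 54.3% in Sik3, and between 57% and 59.7% in the Crtc genes and Stk11. It was 39.6% in Creb1, 40.2% in Prkaa1 and 40.7% in Prkaa2, at percentiles 3.7 to 5.97 of the genes tested. Creb1 and Prkaa2 were also among the longest (8364 and 7969 bases for the transcript used), while Sik2 was 3552 bases and stood at percentile 61.9 of length. These properties are given here because changes across all genes varied with length and GC content, as described with the results.

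Sequencing depth differed between libraries. Total estimated counts were 5060577 to 17066392 in 10 libraries, 1953154 in WT saline library 1 and 719735 in the library labelled KO ethanol 1. The last 2 are the libraries whose names open with L, where the other 10 open with P, and no label says what the letters mark. In the targeted gene, transcript NM_001127233 took 65.7% to 70.6% of the Trp53 count in KO saline libraries and 7.01% to 23.1% in WT libraries. It took 70.6% and 48.3% in KO ethanol libraries 2 and 3, but 7.01% of only 14 counts in the library labelled KO ethanol 1, as in 3 of the WT libraries, so this library's label could not be checked. Values without both L libraries are therefore given beside several of the results, and beside each of the 10 genes whose call they change. Levels are CPM, the count of a gene scaled to library size, after TMM scaling (normalized CPM), and each group has n = 3. WT saline library 2 had a TMM factor of 0.564, against 0.832 to 1.23 in the other libraries, although its depth was not low. No label says whether the libraries of a group came from separate litters, so p-values measure the spread between these libraries.

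Sik2 was lowest in WT mice given saline and higher in the other 3 groups, by a fitted 4.18-fold in WT mice exposed to ethanol and 3.93-fold in KO mice given saline. Sik2 (NM_178710, chr9:50892801-51009073, minus strand) was at 4.11, 3.12 and 4.83 normalized CPM in the 3 WT saline libraries. It was at 19.1, 17.04 and 14.7 in the WT ethanol libraries. It stood at 16.9, 16.8 and 14.1 in KO saline libraries, and at 8.36, 12.8 and 15.2 in KO ethanol libraries. The highest WT saline library was thus below the lowest of the other 9 libraries, and the other 3 groups overlapped each other. The lowest KO ethanol value, in the library labelled KO ethanol 1, rested on 5 counts (95% Poisson interval 2.71 to 19.5 CPM, counting error only), and the 8 counts of WT saline library 1 allowed 1.78 to 8.11 CPM. In bulk tissue, fewer cells of a type and less RNA per cell cannot be told apart.

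The group means of Sik2 were 4.02 ± 0.856 (SD, n = 3) normalized CPM for WT mice given saline, 16.9 ± 2.18 for WT mice exposed to ethanol, 15.9 ± 1.61 for KO mice given saline and 12.1 ± 3.48 for KO mice exposed to ethanol. Ethanol against saline gave a log2 fold change of 2.06 (SE 0.39) in WT mice and of -0.33 (SE 0.37) in KO mice. KO against WT mice gave 1.97 (SE 0.39) under saline and -0.42 (SE 0.37) after ethanol. The interaction was -2.40 (SE 0.54), which is the log2 fold change for ethanol of the KO genotype less that of the WT genotype. All of these contrasts share groups, and the interaction and both larger contrasts share the 3 WT saline libraries. Without the L libraries the values were 1.99, 1.92 and -2.20 for WT ethanol, KO saline and the interaction.

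**Figure D1:**
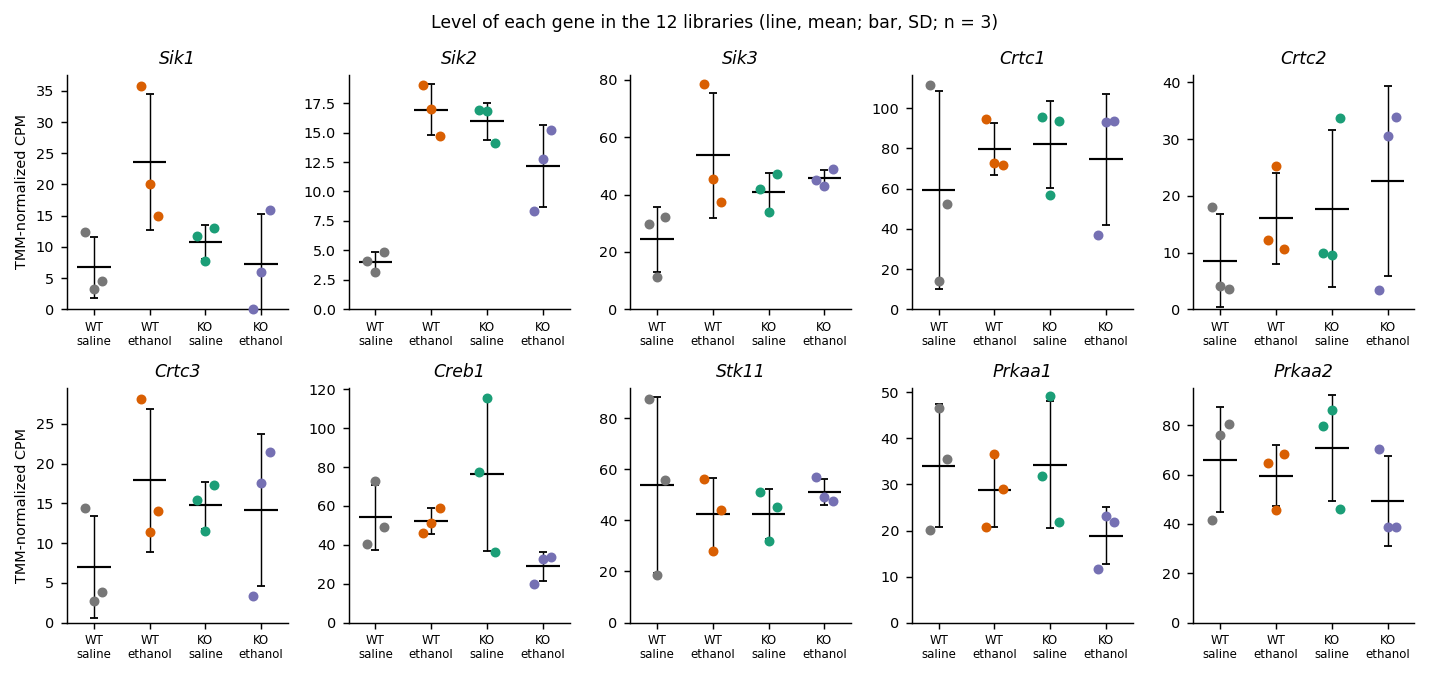
Normalized CPM of the 10 genes (vertical axes, linear from 0) in the 4 groups, with 1 point per library, the mean as a line and the SD as a bar (n = 3). The 3 Sik2 points of WT saline lie between 3.12 and 4.83, below all 9 others, whereas for Crtc1, Stk11, Prkaa1 and Prkaa2 the groups overlap.

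The gene that overlaps Sik2 did not pass the test. The last 1429 bases of Sik2 lie opposite Ppp2r1b, a scaffold subunit of protein phosphatase 2A (chr9:50892801-50894229), and the strand setting of the authors' counting is not stated. Ppp2r1b was at 8.36 to 23.9 normalized CPM over the 12 libraries. Its log2 fold change was 0.04 (SE 0.38, adjusted p = 0.962) in the WT ethanol contrast and 0.40 (SE 0.38, adjusted p = 0.573) for KO against WT mice under saline.

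The other 9 genes were tested in an edgeR quasi-likelihood model over all 14739 symbols, with a call at an adjusted p under 0.30, the level the study used. For ethanol against saline in WT mice, 3 of the 9 were called, all of them higher, where 22.5% of all genes were called. These were Sik1, Sik3 and Crtc3, and the same 3 had an unadjusted p under 0.05, a level reached by 18.3% of all genes. The share of the 9 called was thus near the background. The median log2 fold change of the 9 was 0.44, against 0.06 over all genes tested.

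Sik1, an immediate-early gene induced by cAMP in many tissues, was at 12.3, 3.31 and 4.61 normalized CPM in WT saline libraries and at 35.8, 20.03 and 14.9 in WT ethanol libraries. The 2 groups did not overlap. Sik1 rose by a log2 fold change of 1.90 (SE 0.71, adjusted p = 0.215). In KO mice the values were 11.7, 7.79 and 13.1 under saline and 0, 5.92 and 15.9 after ethanol, the 0 being in the library labelled KO ethanol 1, where 3 counts would be 5.02 CPM. The KO groups overlapped, with a log2 fold change of -0.33 (SE 0.68, adjusted p = 0.999). KO mice were below WT mice after ethanol by -1.45 (SE 0.69, adjusted p = 0.982), which was not called. The interaction of -2.22 (SE 0.98, unadjusted p = 0.0388, adjusted p = 0.309) missed the threshold, and without the L libraries it was -2.48 with an adjusted p of 0.113.

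Sik3, the largest of the SIKs, was at 29.8, 11.4 and 32.2 normalized CPM in WT saline libraries and at 78.5, 45.3 and 37.3 in WT ethanol libraries. These groups did not overlap either, the closest libraries being at 32.2 and 37.3. The log2 fold change of Sik3 was 1.14 (SE 0.42, adjusted p = 0.212). KO mice given saline were at 41.9, 34.0 and 47.1, all above the WT saline libraries, with a log2 fold change of 0.75 (SE 0.41, adjusted p = 0.322) that was not called. KO mice exposed to ethanol lay in a narrow range, 45.1, 43.1 and 49.0. Non-overlapping WT groups were seen in Sik1 and Sik3 among the 9 genes for ethanol, and in Sik3 alone for KO against WT mice under saline, where 19.6% and 22.9% of all genes did not overlap.

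Crtc3, a CREB coactivator, was at 14.4, 2.76 and 3.86 normalized CPM in WT saline libraries and at 28.1, 11.4 and 14.1 in WT ethanol libraries. WT saline library 1, of low depth, was the high one and lay within the ethanol range. Crtc3 rose by 1.47 (SE 0.65, adjusted p = 0.252) on the log2 scale. In KO mice it was at 15.4, 11.5 and 17.3 under saline and at 3.34, 17.5 and 21.5 after ethanol, the lowest resting on 2 counts.

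Crtc2, the coactivator best known from liver, showed the same high WT saline library. It was at 18.0, 4.04 and 3.57 in WT saline libraries and at 12.2, 25.3 and 10.6 in WT ethanol libraries, a log2 fold change of 1.01 (SE 0.78, adjusted p = 0.484). Crtc1, the coactivator best known from neurons, was at 112, 14.2 and 52.2 in WT saline libraries, the widest spread of the 3 within that group, and at 94.5, 72.5 and 71.6 in WT ethanol libraries. Its log2 fold change was 0.44 (SE 0.56, adjusted p = 0.687). In KO mice Crtc2 ranged from 9.49 to 33.7 under saline and from 3.34 (2 counts) to 33.9 after ethanol, and Crtc1 from 56.9 to 95.6 and from 36.8 to 93.7. For all 3 coactivators the WT saline library of low depth was the highest of its group.

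The calls in WT mice depended on single libraries. Without WT saline library 2, without WT ethanol library 1 or without WT ethanol library 2, none of Sik1, Sik3 and Crtc3 was called; the adjusted p was then 0.454, 0.519 and 0.325 for Sik1, 0.459, 0.537 and 0.317 for Sik3, and 0.534, 0.590 and 0.328 for Crtc3. The loss was not particular to these genes, as only 1.3%, 0.476% and 5.54% of all genes were then called. Without WT saline library 3, Sik3 alone was called (adjusted p = 0.236), with 0.347 for Sik1 and 0.469 for Crtc3, where 14.2% of all genes were called. Crtc3 also lost its call without KO saline library 1 (adjusted p = 0.324) and without KO ethanol library 2 (adjusted p = 0.312), where 12.6% and 14.8% of all genes were called. Without WT saline library 1, Crtc1 and Crtc2 were called as well, making 5 of the 9, but 48.7% of all genes were then called. Without both L libraries, 7 of the 9 were called, 5 higher (Sik1, Sik3 and the 3 Crtc genes) and 2 lower (Prkaa1 and Prkaa2), where 55.4% of all genes were called. Their log2 fold changes were then 2.48 for Sik1, 1.22 for Sik3, 1.18 for Crtc1, 1.997 for Crtc2, 2.33 for Crtc3, -0.60 for Prkaa1 and -0.47 for Prkaa2.

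Creb1, the transcription factor itself, did not follow the SIKs in WT mice. It was at 40.6, 72.6 and 49.0 normalized CPM in WT saline libraries and at 46.2, 51.3 and 59.1 in WT ethanol libraries, a log2 fold change of -0.05 (SE 0.41, adjusted p = 0.955). In KO mice the order was different. Creb1 was at 77.6, 115 and 36.4 under saline and at 20.1, 32.8 and 33.7 after ethanol, so the groups did not overlap, although the closest libraries were at 36.4 and 33.7. Over all genes, 10.8% did not overlap in that contrast. Its log2 fold change for ethanol in KO mice was -1.37 (SE 0.42, unadjusted p = 0.00554, adjusted p = 0.999), which was not called. The interaction was -1.31 (SE 0.58, unadjusted p = 0.0403, adjusted p = 0.313), and KO against WT mice after ethanol gave -0.82 (SE 0.42, adjusted p = 0.982), again without overlap, as in 12.7% of all genes. With the trends of length and GC content removed, the interaction of Creb1 was 0.39 (adjusted p = 0.741), of opposite sign, and its log2 fold change was -0.41 for ethanol in KO mice and -0.09 for KO against WT mice after ethanol.

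Stk11, which encodes LKB1, varied most among WT mice given saline. It was at 87.4, 18.6 and 55.9 normalized CPM in those libraries, at 56.0, 27.9 and 44.0 in WT ethanol, at 51.0, 31.9 and 45.1 in KO saline and at 56.8, 49.0 and 47.5 in KO ethanol libraries. All 4 groups overlapped. The log2 fold change was -0.33 (SE 0.46, adjusted p = 0.721) in the WT ethanol contrast and -0.33 (SE 0.46, adjusted p = 0.716) for KO against WT mice under saline, and the signs turned without the L libraries (0.12 and 0.14).

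Prkaa1 and Prkaa2, the catalytic subunits of AMPK, did not pass the test in any contrast over the 12 libraries. Prkaa1 was at 20.05, 46.7 and 35.6 normalized CPM in WT saline libraries and at 20.7, 36.5 and 29.0 in WT ethanol libraries, with a log2 fold change of -0.26 (SE 0.42, adjusted p = 0.762). Prkaa2 was at 41.6, 75.9 and 80.5 and at 64.8, 45.5 and 68.4 in the same groups, with a log2 fold change of -0.15 (SE 0.38, adjusted p = 0.856). For both genes the low WT saline library was library 1, of low depth, the reverse of the Crtc genes. In KO mice Prkaa1 was at 21.9 to 49.1 under saline and 11.7 to 23.1 after ethanol, and Prkaa2 at 46.0 to 86.0 and 38.6 to 70.2. Under saline, KO against WT mice gave 0.00 (SE 0.42, adjusted p = 0.998) for Prkaa1 and 0.09 (SE 0.38, adjusted p = 0.914) for Prkaa2.

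**Figure D2:**
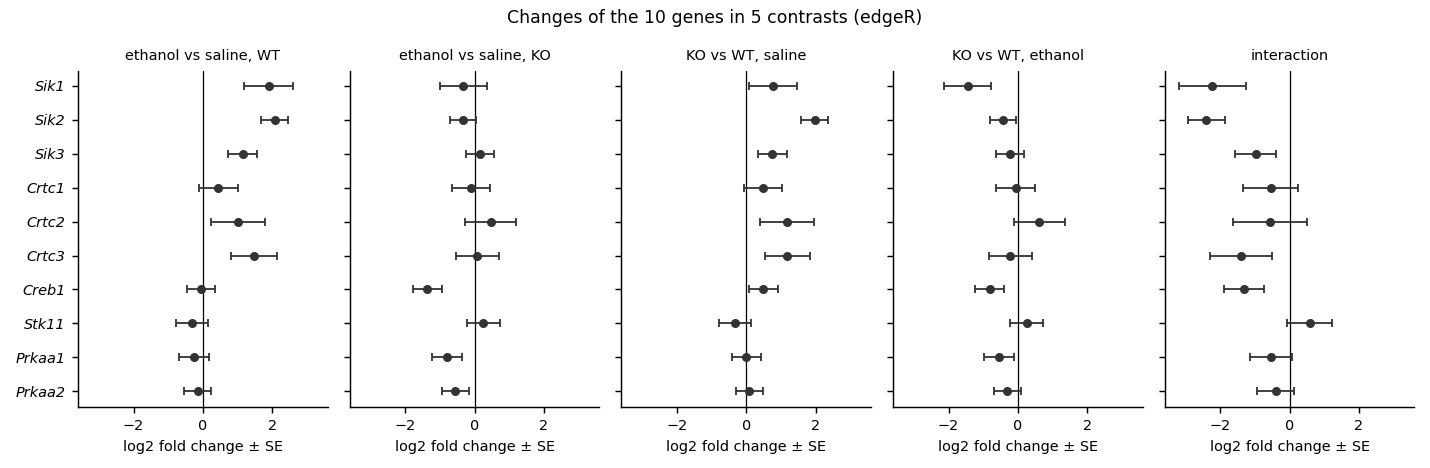
Log2 fold changes of the 10 genes (points) with standard errors (bars, horizontal axes) in 5 contrasts of the edgeR model. Sik2 lies at 2.06 for ethanol in WT mice, 1.97 for KO against WT mice under saline and -2.40 in the interaction, and Sik2 carries no test.

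For KO against WT mice under saline, 0 of the 9 genes other than Sik2 were called by edgeR, where 25.8% of all genes were called. None had an unadjusted p under 0.05, a level reached by 19.6% of all genes. DESeq2 called 2, Sik3 (adjusted p = 0.293) and Crtc3 (adjusted p = 0.266), where it called 30.4% of the genes it gave an adjusted p. With limma on RPKM the count was 0. Log2 fold changes were above 0 in 7 of the 9, with a median of 0.50 against 0.04 over all genes, and the highest were 1.19 (SE 0.65) for Crtc3 and 1.17 (SE 0.77) for Crtc2. Without the L libraries edgeR called 5, all higher in KO mice, where 56.4% of all genes were called. These were Sik1 (1.37), Sik3 (0.85), Crtc1 (1.24), Crtc2 (2.16) and Crtc3 (2.07). Without WT saline library 1 the count was also 5 (50.4% of all genes), and without the library labelled KO ethanol 1 it was 2 (33.4% of all genes).

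In KO mice, ethanol against saline gave 0 calls among the 9 genes by edgeR, DESeq2 and limma, and the edgeR call rate over all genes was 0%. At an unadjusted p under 0.05 there was 1 (Creb1), where 3.15% of all genes reached that level. KO against WT mice after ethanol also gave 0 calls with each tool (0% of all genes by edgeR) and 0 at an unadjusted p under 0.05, where 3.24% of all genes reached it. The interaction gave 0 calls by edgeR, where 11.1% of all genes were called, and 2 at an unadjusted p under 0.05 (Sik1 and Creb1), where 15.2% of all genes reached it. DESeq2 called those 2 in the interaction (adjusted p = 0.181 and 0.275), where it called 21.1% of the genes it gave an adjusted p. With limma the count was 0. Without WT saline library 1, edgeR called 5 in the interaction (Sik1, Sik3, Crtc1, Crtc3 and Creb1, with 33.8% of all genes), without both L libraries 2 (Sik1 and Crtc3, with 28.9%), and without KO saline library 3 or KO ethanol library 3 it called 1 (Creb1 and Sik1, respectively, with 12.1% and 11.4%).

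Per length, Sik2 was the lowest of the 10 genes in WT mice given saline, at 1.28 ± 0.230 RPKM (SD, n = 3) in the authors' values summed per symbol. Crtc3 (1.42 ± 1.17) and Sik1 (1.58 ± 0.982) were next and did not differ from Sik2 beyond their spread. Crtc2 was at 3.12 ± 2.55, Sik3 at 3.86 ± 1.58, Prkaa1 at 6.80 ± 2.60, Creb1 at 7.05 ± 2.32 and Prkaa2 at 7.39 ± 2.39. Crtc1 at 9.35 ± 7.02 and Stk11 at 19.2 ± 11.2 were the highest, with wide spreads. In WT mice exposed to ethanol, Sik2 was at 4.06 ± 0.364 RPKM, within the spread of both Crtc3 (2.96 ± 1.37) and Sik1 (4.51 ± 1.99). Sik3 was at 7.55 ± 3.13 and Stk11, still the highest, at 14.8 ± 5.50.

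Changes across all genes varied with transcript length and base composition. Over 14583 genes, the log2 fold change and transcript length had a Spearman correlation across genes of 0.48 for ethanol in WT mice, 0.54 for KO against WT mice under saline and -0.60 for the interaction. Genes are not independent replicates, and these values describe the libraries. In KO mice, the ethanol log2 fold change went with length at -0.47 and with GC content at 0.50. With each library's trend with both properties removed, Sik2 kept a log2 fold change of 1.68 (SE 0.32) for ethanol in WT mice, 1.64 (SE 0.32) for KO against WT mice under saline and -1.96 (SE 0.45) for the interaction. Sik1 kept 1.30 (SE 0.51, adjusted p = 0.260) for ethanol in WT mice, whereas Sik3 went to 0.34 (SE 0.36, adjusted p = 0.642) and Crtc3 to 0.80 (SE 0.39, adjusted p = 0.330). Creb1 was then called lower (-0.80, SE 0.30, adjusted p = 0.243). Removing the trend moved the median of all genes from 0.06 to -0.185 in that contrast, from 0.04 to -0.185 for KO against WT mice under saline and from -0.11 to 0.315 in the interaction, so these values are to be read against those medians. The count under this setting was 2 of 9 called, where 13.2% of all genes were called, and under saline and in the interaction it was 0, where 8.28% and 0.165% were called.

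**Figure D3:**
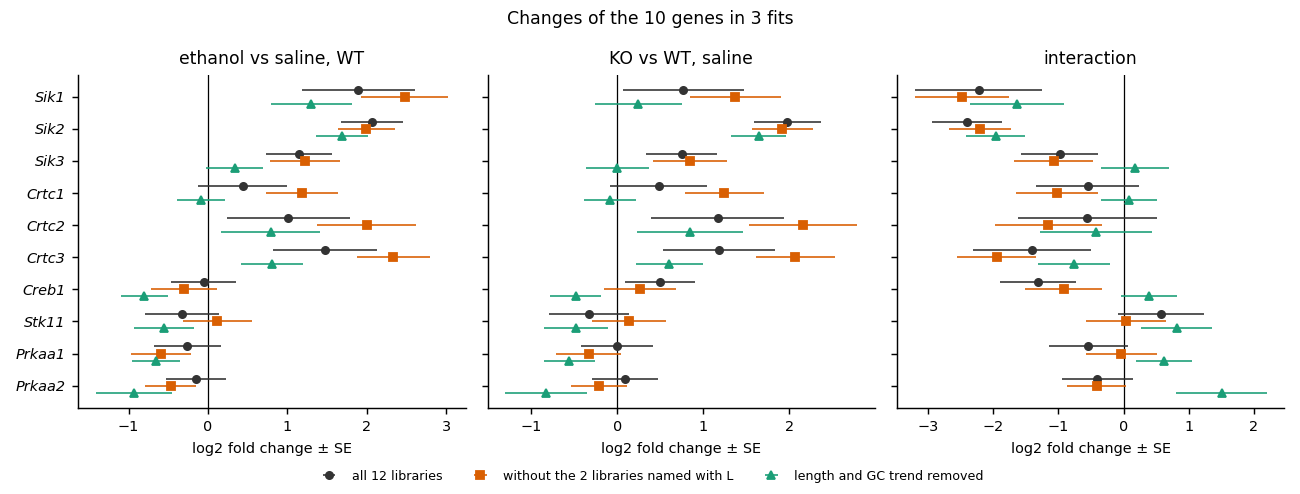
Log2 fold changes with standard errors (horizontal axes) of the 10 genes in 3 contrasts, from all 12 libraries (circles), without the 2 libraries named with L (squares) and with the length and GC trend removed (triangles). For ethanol in WT mice, Sik2 lies at 2.06, 1.99 and 1.68 and Crtc2 at 1.01, 1.997 and 0.79. Prkaa2 crosses 0 in the interaction.

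Markers of other cells also varied between the groups. All 6 cortical identity markers were detected in all 12 libraries, at a summed level of 143 to 591 normalized CPM. The 4 hemoglobin genes of blood summed to 328 to 1280 in WT saline libraries, 48.7 to 139 in WT ethanol, 35.6 to 93.2 in KO saline and 28.8 to 745 in KO ethanol libraries, so WT saline, the group with the least Sik2, was the highest and did not overlap WT ethanol or KO saline; 1 KO ethanol library reached its range, the library labelled KO ethanol 1. The 7 neuronal markers, all detected in every library, summed to 5240 to 7390 in WT saline and 3300 to 5160 in WT ethanol libraries, and to 3740 to 5590 and 3290 to 6770 in KO saline and KO ethanol libraries. The gap between the WT groups came from Tubb3 (2820 to 4690 against 1140 to 1540): without it the other 6 summed to 2410 to 3300 and 1990 to 3620, which overlapped. The inhibitory markers went the other way, with Gad1 at 74 to 95 in WT saline and 141 to 172 in WT ethanol libraries, and Gad2 at 21.2 to 60.2 and 104 to 115. The 3 hippocampal markers (2 detected in all libraries) summed to 11.8 to 23.1 in WT saline and 26.2 to 114 in WT ethanol libraries. For astrocytes, oligodendrocyte lineage, microglia, endothelium, choroid plexus and striatum, the range of WT saline overlapped that of each other group. For thalamus, WT saline (70.4 to 173) overlapped WT ethanol and KO saline but lay above KO ethanol (35.1 to 64.3). The highest WT ethanol library was far above the highest WT saline library in choroid plexus (4980 against 122), thalamus (946 against 173) and striatum (607 against 86.7) markers. The part of these markers in the result for Sik2 was not tested.

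Other genes of the pathway came from 10 lists of 77 genes, of which 75 were tested. For ethanol in WT mice, 13 were called higher and 3 lower, and for KO against WT mice under saline, 14 were called higher and 0 lower. These 16 and 14 genes are 21.3% and 18.7% of the 75, where 22.5% and 25.8% of all genes were called. Fewer, 12 and 8, had an unadjusted p under 0.05, a level reached by 18.3% and 19.6% of all genes. In the interaction 1 was called higher and 4 lower, or 6.67%, where 11.1% of all genes were called. For ethanol in KO mice and for KO against WT mice after ethanol, edgeR and DESeq2 each called 0, with 3 and 2 at an unadjusted p under 0.05. Without WT saline library 2, the counts were 2 for ethanol in WT mice and 0 for KO against WT mice under saline, where 1.3% and 0.246% of all genes were called. Without both L libraries they were 41 in each, or 54.7% of the 75, where 55.4% and 56.4% of all genes were called. With the length and GC trend removed, they were 13 and 8, where 13.2% and 8.28% of all genes were called.

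Among the partners that activate LKB1, 1 of 4 was called lower after ethanol in WT mice, the pseudokinase gene Stradb (-0.75, SE 0.32, adjusted p = 0.243), with a list median of -0.05. Of 4 tested AMPK beta and gamma subunits, 1 was called, Prkab2, a beta subunit. Over all genes, 22.5% were called for ethanol in WT mice and 25.8% for KO against WT mice under saline. The 1 of 4 in each list was thus near the background. Prkab2 was at 11.4 normalized CPM in WT mice given saline and 58.7 after ethanol, and at 57.5 and 41.6 in KO mice (means, n = 3). Its log2 fold changes of 2.34 (SE 0.60, adjusted p = 0.153) in WT mice and 2.31 (SE 0.60, adjusted p = 0.163) for KO mice under saline both passed the threshold. The list medians were -0.08 and -0.12.

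Of the 11 other AMPK-related kinases, 2 were called higher after ethanol in WT mice and 5 in KO mice under saline, with list medians of 0.46 and 0.65 and, over all genes, 22.5% and 25.8% called in either direction. An unadjusted p under 0.05 was reached by 2 and 1 of the 11, and by 18.3% and 19.6% of all genes. Mark4, a microtubule affinity-regulating kinase, rose by 2.08 (SE 0.61, adjusted p = 0.185) and 2.01 (SE 0.61, adjusted p = 0.176). Hunk, a hormonally upregulated kinase, rose by 1.85 (adjusted p = 0.238) and 1.63 (adjusted p = 0.260). Nuak2 (1.62, adjusted p = 0.283) and Mark1 (0.65, adjusted p = 0.297) were called only in the second contrast, and the difference between the contrasts was not tested. With the length and GC trend removed, Hunk was at 0.94 (adjusted p = 0.451) and 0.93 (adjusted p = 0.481), Mark1 at 0.16 (adjusted p = 0.829) and Nuak2 at 1.36 (adjusted p = 0.397). Hunk was at 0.69 (adjusted p = 0.723) for ethanol in WT mice without WT ethanol library 1 and at 1.03 (adjusted p = 0.587) for KO against WT mice without KO saline library 1, and Mark1 at 0.42 (adjusted p = 0.605) without KO saline library 3.

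On the cAMP side, 1 of 6 PKA subunits was called, the regulatory subunit gene Prkar2a, higher after ethanol in WT mice (1.08, SE 0.50, adjusted p = 0.269), with a list median of 0.06. Over all genes 22.5% were called in that contrast. Prkar2a lost its call with the trend removed (0.42, adjusted p = 0.688) and without both L libraries (0.75, adjusted p = 0.310), and with 1 library left out it ranged from 0.65 (without WT ethanol library 1) to 2.04 (without WT saline library 3). Of 8 adenylyl cyclases, which make cAMP, 2 were called higher after ethanol in WT mice and 3 in KO mice under saline, with list medians of 0.57 and 0.63, beside the same 22.5% and 25.8% of all genes. An unadjusted p under 0.05 was reached by 1 and 2 of the 8 in these contrasts, and by 18.3% and 19.6% of all genes. Adcy5 rose by 1.46 (SE 0.42, adjusted p = 0.180) in the first. Adcy6 rose by 1.56 (adjusted p = 0.288) and 2.12 (adjusted p = 0.185). Adcy1, a calcium-stimulated form of neurons, rose by 1.35 (SE 0.47, adjusted p = 0.178) and Adcy9 by 0.77 (adjusted p = 0.292) in KO mice under saline. With the trend removed, Adcy5 was at 0.59 (adjusted p = 0.430) and Adcy6 at 0.90 (adjusted p = 0.376) in the WT ethanol contrast, and Adcy1 was at 0.36 (adjusted p = 0.705) and Adcy9 at 0.03 (adjusted p = 0.970) in KO mice under saline. Adcy6 was at 2.48 in the first contrast without WT saline library 1, and without WT saline library 2 Adcy9 was at 0.50 (adjusted p = 0.614) in the second.

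Of the 4 genes of the CREB family, CBP and p300, 1 was called. Over all genes, 22.5% were called for ethanol in WT mice and 25.8% for KO against WT mice under saline. Crebbp, which encodes the CREB-binding acetyltransferase CBP, was at 5.62 normalized CPM in WT saline libraries and at 24.5, 22 and 19.6 in WT ethanol, KO saline and KO ethanol libraries (means, n = 3). Its log2 fold change was 2.18 (SE 0.47, adjusted p = 0.0967) in the WT ethanol contrast and 2.02 (SE 0.46, adjusted p = 0.147) for KO mice under saline. With the trend removed these were 1.11 (adjusted p = 0.184) and 1.04 (adjusted p = 0.240). The order of its 4 groups was the same as for Sik2, as it also was for other listed genes, among them Prkab2, Mark4 and Hunk. Among the 4 calcineurin subunits and the 7 genes of 14-3-3 proteins, edgeR called 0 in any contrast and 0 had an unadjusted p under 0.05, with medians of -0.54 and -0.06 for ethanol in WT mice. DESeq2 called 1 gene of each list in the WT ethanol contrast and under saline (Ppp3cb and Ywhah), and Ywhah in the interaction. Of the class IIa HDACs, which are further SIK substrates, 1 of 4 was called, Hdac9, higher in KO mice under saline (0.97, SE 0.43, adjusted p = 0.236), and at 0.43 (adjusted p = 0.642) with the trend removed. In that contrast 25.8% of all genes were called over the 12 libraries.

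Of 23 tested CREB target genes, 6 were called higher and 2 lower after ethanol in WT mice, and 3 higher in KO mice under saline. Over all genes 22.5% and 25.8% were called, in either direction. An unadjusted p under 0.05 was reached by 5 and 2 of the 23, and by 18.3% and 19.6% of all genes. The list medians were 0.47 in both, against 0.06 and 0.04 over all genes. Penk, which encodes proenkephalin, rose by 2.65 (SE 0.85, adjusted p = 0.198) and Fos by 2.11 (SE 0.77, adjusted p = 0.212) after ethanol in WT mice. Arc, an activity-regulated gene of synapses, rose by 1.93 (SE 0.64, adjusted p = 0.203) there and by 1.76 (SE 0.64, adjusted p = 0.185) in KO mice under saline. Crh, the corticotropin-releasing hormone gene, fell by 1.47 (SE 0.53, adjusted p = 0.209) on the log2 scale after ethanol in WT mice, from 4.78 to 1.71 normalized CPM. Arc and Fos were low, at means of 1.90 and 1.88 normalized CPM in WT saline libraries. Fos was at 1.05 (adjusted p = 0.591) without WT ethanol library 1. Penk was at 1.91 (adjusted p = 0.340) without WT ethanol library 2, the library with the highest striatal markers, and their part in its value was not tested. After ethanol in KO mice Penk was also higher, by 2.10 (SE 0.85, adjusted p = 0.999), which was not called. Its interaction was -0.54 (adjusted p = 0.859). With the trend removed, Crh was at -1.16 (adjusted p = 0.313) in the WT ethanol contrast and Arc at 1.29 (adjusted p = 0.319) in KO mice under saline.

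The calls of these named list genes rested on single libraries more widely. Of the 12 described for ethanol in WT mice, 1 (Penk) was called without WT ethanol library 1, 2 (Crebbp and Penk) without WT saline library 2 and 6 (Prkab2, Mark4, Adcy5, Crebbp, Arc and Fos) without WT ethanol library 2. Over all genes 0.476%, 1.3% and 5.54% were then called. With any other library left out 9 to 12 were called, and those lost were among Stradb, Prkar2a and Adcy6. Of the 11 described for KO against WT mice under saline, 0 were called without WT saline library 2, KO saline library 1 or KO saline library 2. Over all genes 0.246%, 0.0599% and 0.0599% were then called. Without KO saline library 3 the count was 5 (Prkab2, Mark4, Hunk, Crebbp and Hdac9, with 9.57% of all genes), and without WT saline library 3 it was 6 (Prkab2, Mark4, Hunk, Adcy1, Adcy9 and Crebbp, with 13.7%). With any other library left out it was 7 to 11, and those lost were among Hunk, Nuak2, Mark1 and Adcy9.

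The 5 genes whose levels were most like those of Sik2 over the 12 libraries were Rims1 (Pearson r = 0.985 on log2 CPM), Peg3 (0.979), Fam13b (0.974), Tcaf1 (0.972) and Sorcs3 (0.967), out of 14738. The libraries fall into the 4 groups, so these values describe a shared order of groups as much as a shared variation. Rims1, an active-zone protein gene of synapses, was at 6.42 normalized CPM in WT saline libraries and at 39.1, 37.9 and 26.5 in WT ethanol, KO saline and KO ethanol libraries. Peg3, an imprinted gene, went from 8.41 to 103, 81.4 and 62 in the same order. Among the other 9 genes of the set, Sik3 was the most like Sik2 (0.777, number 564 of 14738), followed by Crtc3 (0.718), Crtc1 (0.588), Crtc2 (0.529) and Sik1 (0.393). Values for Creb1 (0.0858), Stk11 (0.0189), Prkaa1 (-0.0716) and Prkaa2 (-0.125) were lower. Without the L libraries the order changed, and Crtc3 was the most like Sik2 (0.919, number 373), followed by Crtc1 (0.852), Sik3 (0.839), Sik1 (0.808), Crtc2 (0.687) and Stk11 (0.438), with Creb1 at -0.0939, Prkaa2 at -0.33 and Prkaa1 at -0.466. The 5 genes named first were then at 0.964 to 0.984 and at numbers 7, 9, 40, 63 and 42.

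**Figure D4:**
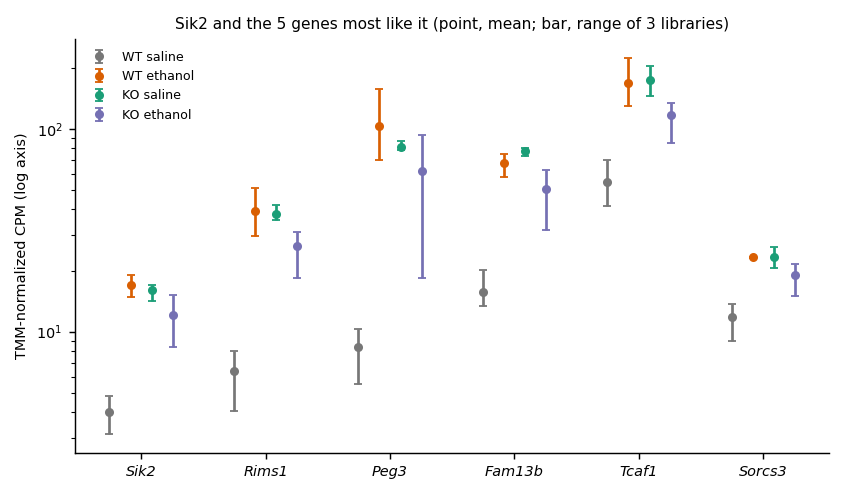
Normalized CPM (log axis) of Sik2 and the 5 genes most like it, as group means (points) with the range of the 3 libraries (bars). In each gene WT saline is the lowest group, at 4.02 for Sik2 and 6.42 for Rims1.

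Creb1 and Stk11 were the only members with more than 1 transcript in the files. The 3 Creb1 transcripts divided the count about equally in 11 libraries, where each took between 25.4% and 41.4%, and the library labelled KO ethanol 1 had 12 counts in all. For Stk11, transcript NM_011492 took 47.6%, 28.5% and 86.0% in WT saline libraries and 93.2%, 86.1% and 96.6% in WT ethanol libraries. It took 95.9%, 64.1% and 75.3% in KO saline and 2.22%, 86.9% and 83.0% in KO ethanol libraries, the 2.22% being of 34 counts. Most of the rest was assigned to NM_001301854, which reached 52.4% and 71.5% in WT saline libraries 1 and 2 and 97.8% in the library labelled KO ethanol 1. The 3 libraries with the lowest share of NM_011492 thus included both of the libraries named with L. These 2 transcripts start and end at the same bases in the files (chr10:80115803-80130685, plus strand) and differ in exons, with 10 and 8.

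**Figure D5:**
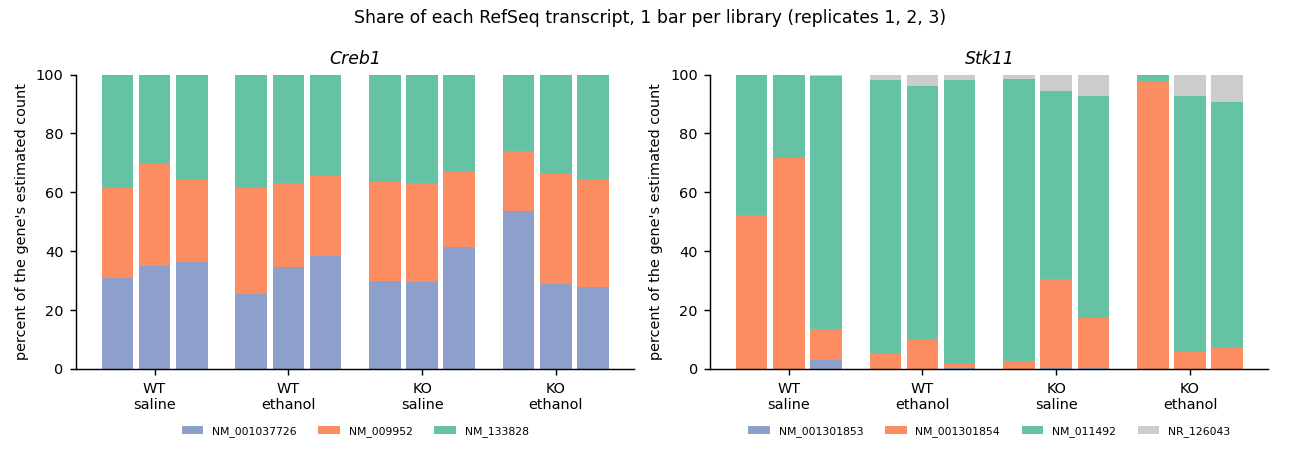
Share of each RefSeq transcript in the estimated count of Creb1 and Stk11 (vertical axes, percent), 1 bar per library in the order of replicates 1, 2 and 3. The NM_011492 share of Stk11 is 2.22% to 47.6% in WT saline libraries 1 and 2 and the library labelled KO ethanol 1, and 64.1% or more in the other 9.

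The promoters of 8 of the 10 genes were in the RefSeq table for GRCm38 (250 bases before to 50 after the start), and Sik1 and Crtc2 were not among them. The full palindromic cAMP response element (TGACGTCA) was in 0 of the 8, and in 1.79% of 32851 promoters of the same length. The half-site TGACG on either strand, which the full element contains, was in 20.8% of all promoters and in those of Sik2 (2 matches), Sik3 (3), Stk11 (1) and Prkaa2 (1), and in none of Crtc1, Crtc3, Creb1 and Prkaa1. Sik3 is shown as the one with most matches, with the half-sites in capitals over the 250 bases before its start (chr9:46012570-46012819, plus strand).
Sik3 promoter: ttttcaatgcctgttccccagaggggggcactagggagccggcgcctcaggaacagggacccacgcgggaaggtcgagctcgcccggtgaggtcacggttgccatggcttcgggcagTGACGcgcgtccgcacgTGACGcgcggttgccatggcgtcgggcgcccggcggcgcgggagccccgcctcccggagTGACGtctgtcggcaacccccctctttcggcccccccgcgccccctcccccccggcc
A match is a description of letters and not of binding, which was not measured here.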

How the data were processed

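Stranded RNA-Seq of somatosensory cortex had been done in 12 libraries. Per the study's methods, the authors filtered reads by quality, aligned them to mm10 (TopHat with Bowtie2) and, in Partek Flow, quantified the RefSeq transcripts (version and counting settings not given in the sources used here). The deposited estimated counts are not scaled for depth and hold fractions, because reads shared between transcripts were divided. The deposited RPKM values were normalized further by the authors, since their sorted values coincided within 1% between libraries.

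Here counts were summed per symbol, rounded and fitted by edgeR 4.0.16 under R 4.3.3, after its filterByExpr filter and TMM scaling, with 1 mean per group over all 12 libraries. Tests were two-sided quasi-likelihood tests with Benjamini-Hochberg adjustment over the 14739 genes tested, and standard errors were derived from the F statistic. A call is an adjusted p under 0.30, the study's level. Groups came from the sample labels, and replicate numbers follow accession order and pair nothing. The set of genes, the 10 pathway lists, the marker lists and the tests were chosen with earlier results of these data known. Every member was named, and from each list the genes called in any contrast, at most 4 by the smallest p for ethanol in WT mice (where none was called, the 2 with the smallest p, not described here). The genes most like Sik2 were the 5 with the highest Pearson r. Alternatives were DESeq2 1.42.0, limma 3.58.1 on log2(RPKM + 1) and log2(RPKM + 0.1), no TMM factors, 2 other count filters, a fit per transcript, removal of length and GC trends (splines with 5 degrees of freedom), the first letter of the library name as a covariate, fewer libraries, and each library left out. The counts over the pathway lists were run under these settings after the values were seen. The main edgeR fit, DESeq2, the removal of length and GC trends and limma with a pseudocount of 1 were also run on simulated counts. Sequences and exons came from GENCODE M21 and RefSeq. Intervals cover counting error only. Figures used matplotlib 3.10.9.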

Additional observations from a re-analysis of the deposited data

How the results depend on the processing

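For Sik2, every alternative that gave a value kept the sign in all 5 contrasts; the filter of at least 10 counts per library left it out. Sik2 was chosen for its change in these same libraries, so its kept signs are a description and no test. Its log2 fold changes for ethanol in WT mice, KO against WT mice under saline and the interaction were 2.51, 2.41 and -2.79 without TMM factors, 1.15, 1.06 and -1.36 on log2(RPKM + 1), 1.60, 1.49 and -1.86 on log2(RPKM + 0.1), and 1.68, 1.64 and -1.96 with the length and GC trend removed. A pseudocount draws the change of a low gene toward 0 by construction; the cause of the other moves was not tested. Of the 9 other genes, the number called for ethanol in WT mice was 1 with at least 10 counts in every library (of the 5 still tested, without Sik1, Crtc2, Crtc3 and Prkaa1, as in the other contrasts), 0 with limma at either pseudocount, 0 with only the groups compared in the fit and 7 without the L libraries, and 0 to 5 with 1 library left out. For KO against WT mice under saline it was 2 with DESeq2, 3 without TMM factors, 1 of the 5 tested with at least 10 counts in every library, 1 of 9 with the letter covariate and 5 without the L libraries (0 to 5 with 1 left out). In the interaction it was 2, 1, 1 and 2 with DESeq2, without TMM factors, with at least 10 counts (of 5 tested) and without the L libraries (0 to 5 with 1 left out). Without TMM factors, 3371 of 14739 genes were called higher and 680 lower under saline, and 372 and 1634 in the interaction. Where no count or share over all genes is given for a setting, its count is not read as a result about the 9 genes.

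Signs turned for several genes, and not only for values near 0. For ethanol in WT mice, log2 fold changes without TMM factors were 0.46 (Creb1), 0.28 (Prkaa1) and 0.34 (Prkaa2), and with at least 10 counts in every library 0.10 (Creb1) and 0.01 (Prkaa2). Per transcript they were 0.00 (Creb1) and 0.30 (Stk11), with the trend removed -0.09 (Crtc1), with the letter covariate 0.03 (Stk11) and without the L libraries 0.12 (Stk11). For KO against WT mice under saline, Prkaa1 was at 0.52 without TMM factors and 0.00 with at least 1 count in any library, and Prkaa2 was at -0.01 on either RPKM scale and -0.21 without the L libraries. Stk11 was at 0.09 per transcript, 0.03 with the letter covariate and 0.14 without the L libraries. With the trend removed Crtc1 was at -0.08 (0.48 in the main fit), Creb1 at -0.48 (from 0.50) and Prkaa2 at -0.82 (from 0.09). In the interaction, Stk11 was at -0.51 per transcript. With the trend removed Sik3 was at 0.18 (-0.98 in the main fit), Crtc1 at 0.08 (from -0.55), Creb1 at 0.39 (from -1.31), Prkaa1 at 0.61 (from -0.54) and Prkaa2 at 1.5 (from -0.40). With 1 library left out, ranges that crossed 0 were -0.27 to 0.19 (Creb1), -0.05 to 1.19 (Crtc1), -0.45 to 0.02 (Prkaa2) and -0.77 to 0.13 (Stk11) for ethanol in WT mice, -0.35 to 0.26 (Prkaa1), -0.18 to 0.29 (Prkaa2) and -0.75 to 0.15 (Stk11) for KO against WT mice under saline, -1.34 to 0.01 (Sik1) for ethanol in KO mice and -1.54 to 0.35 (Crtc2) in the interaction.

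Over all genes, 3310, 3799 and 1632 were called for ethanol in WT mice, KO against WT mice under saline and the interaction. These counts were 356, 419 and 16 on log2(RPKM + 1), 185, 257 and 5 on log2(RPKM + 0.1), 1926, 1207 and 24 with the trend removed and 8295, 8435 and 4322 without the L libraries. With only the groups compared the first 2 were 39 and 2531. With at least 10 counts the first was 2092, and the interaction count was 2678 with DESeq2 and 0 with the letter covariate. With 1 library left out they ranged from 71 to 7304, 9 to 7556 and 0 to 5064. Without TMM factors the median log2 fold change of all genes moved from 0.06 to 0.49, from 0.04 to 0.49 and from -0.11 to -0.52, and the share of calls that were higher went from 53.7% to 87.6%, from 48% to 83.2% and from 50.9% to 18.5%. With the trend removed that share was 40.1%, 38.1% and 12.5%. No paired analysis was possible because the groups share no replicate number in the labels. Depth limits the library labelled KO ethanol 1, where 6 of the 10 genes had at most 12 counts.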
